A study of Mus musculus with 2 samples.

Results

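The regions described here are the 300 widest distal H3K27ac peaks that mouse MA9 leukaemia cells with intact Gata2 carried and that had no counterpart in the peak list of Gata2 KO cells. They were taken from the Gata2 f/f list, on chromosomes 1 to 19, among peaks that lay over 2000 bp from both ends of every protein-coding gene and had no KO peak within 1000 bp. Of 34313 f/f peaks, 33556 lay on these chromosomes and 22570 of those were distal by this rule outside 6 left-out chromosome starts. Of the distal peaks 4543, or 20.1%, had no KO peak within 1000 bp, and the 300 widest of these are the regions. Their width, their place and the missing KO peak are what chose them, so that these values are given as a description and support nothing.

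The series holds 1 library of Gata2 f/f cells and 1 of Gata2 -/- (Gata2 KO) cells, both from ChIP-seq of H3K27ac. MA9 stands for the MLL-AF9 fusion, which drives this leukaemia, and the cells came from the bone marrow of primary mice. Both groups share the kind of leukaemia, the tissue and the kind of culture. Per the labels, cells received Cre or the control construct MIT, were sorted for GFP and tdTomato, and were cultured for 7 to 9 days with IL-3, IL-6 and SCF. Any difference in construct or in days of culture between the 2 libraries cannot be told apart from the genotype. The labels do not give the number of animals, their age, whether both libraries came from the same leukaemia, or which part of Gata2 was removed. With 1 library per genotype there is no replicate error and no test between genotypes: every difference below describes these 2 libraries.

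Acetylation of lysine 27 of histone H3 is laid down by the acetyltransferases CBP and p300 at active promoters and enhancers. Enhancers bind transcription factors and raise the activity of a gene that can lie far away, often the gene in whose intron they sit. Wide or clustered acetylated stretches are typical of genes that define a cell's identity. GATA2 binds GATA sequences in enhancers of blood stem and progenitor cells, together with factors such as TAL1, LMO2, RUNX1, FLI1 and ERG. MLL-AF9 keeps Hoxa genes, Meis1 and other progenitor genes active.

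Peaks of both lists marked the cells as myeloid. A peak within 1 kb of a gene end was present at 10 of 10 leukocyte and myeloid progenitor genes in f/f and at 9 of 10 in KO, where Mpo, the myeloperoxidase gene, had none. T and B lymphocyte genes had 1 of 6 in both lists, erythroid genes 1 of 3 in both, and endothelial and stromal genes 1 of 6 in f/f and 0 of 6 in KO. Epithelial genes had 3 of 4 in f/f and 1 of 4 in KO, the difference being Epcam and Cdh1, and the part of these marks in the results below was not tested. On chromosomes 1 to 19 the median -log10 p was 12.1 in the f/f list and 9.36 in the KO list, and the median fold over background 3.50 and 3.08. Fold and p belong to the peak as the authors called it, and serve here only to rank or describe peaks within a list. Read depth is not given, so that fewer reads, poorer enrichment and less acetylation cannot be told apart where a KO peak is missing.

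The region with the most direct link to the genotype lies inside Gata2 itself (chr6:88196738-88198975, mm10). It was 2238 bp wide in f/f, with a -log10 p of 20.1 and a fold of 2.30, and the nearest KO peak lay 2.21 kb away. The region holds the annotated downstream start of Gata2. The upstream start, near the gene's lower coordinate, lay under a peak in both lists, 1185 bp wide in f/f and 946 bp in KO. The 250 bases before each start are shown because the presence of a KO peak separates them. They come from RefSeq (GRCm38.p6, the same build as mm10), both read on the plus strand, with CG pairs in capitals.
Gata2 upstream start, chr6:88193641-88193890: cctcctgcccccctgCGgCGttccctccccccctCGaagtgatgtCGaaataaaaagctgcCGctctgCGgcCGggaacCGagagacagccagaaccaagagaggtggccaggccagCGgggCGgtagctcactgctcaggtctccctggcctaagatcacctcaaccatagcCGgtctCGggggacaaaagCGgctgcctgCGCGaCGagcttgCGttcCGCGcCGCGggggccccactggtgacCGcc
Gata2 downstream start, chr6:88198414-88198663: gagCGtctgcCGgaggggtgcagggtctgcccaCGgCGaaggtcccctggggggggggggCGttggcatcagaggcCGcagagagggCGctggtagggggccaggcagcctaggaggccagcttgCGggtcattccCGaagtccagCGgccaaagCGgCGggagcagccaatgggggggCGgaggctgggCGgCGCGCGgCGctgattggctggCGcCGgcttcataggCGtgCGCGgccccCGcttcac
The upstream stretch holds 22 CG pairs and the downstream stretch 24. The median 300-base window around the start of a protein-coding gene holds 14. Because it lies in the targeted gene, lost sequence and lost signal cannot be told apart there.

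The same region holds 4 annotated starts of Gm38708, a non-coding gene read from the opposite strand, which was named after its values were seen. GATA sequences were searched as AGATAA, allowing T as the opening base and G as the closing base, on both strands of the 300 bases around each start (250 before and 50 after). Of 31396 such windows on chromosomes 1 to 19, 29.5% held a match. For the protein-coding genes linked to regions, 21.1% of 304 windows held a match, against 20.6% for genes with any distal f/f peak. In the Gata2 region 1 of the 4 Gm38708 windows held a match and the Gata2 window held none. The 250 bases before that Gm38708 start are shown on the minus strand, with the match, read here as the reverse complement, in capitals.
Gm38708, chr6:88197449-88197698: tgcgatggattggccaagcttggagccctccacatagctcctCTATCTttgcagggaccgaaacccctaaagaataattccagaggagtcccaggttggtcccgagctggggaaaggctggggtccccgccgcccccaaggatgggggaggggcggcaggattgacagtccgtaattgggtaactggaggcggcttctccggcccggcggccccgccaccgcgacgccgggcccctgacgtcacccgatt
The capitals fill bases 43 to 48 from the 5′ end. A match is a string of letters and not a bound site.

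Only 1 of the 20 widest regions held a whole promoter window, at Hivep2, which encodes a large zinc finger protein that binds enhancer sequences (rank 18, chr10:13964734-13967942). It was 3209 bp wide with a -log10 p of 8.71, and the nearest KO peak lay 14.7 kb away. The 250 bases before this start are shown on the plus strand with CG pairs in capitals, as a second CG-rich start found under f/f peaks alone.
Hivep2, chr10:13966129-13966378: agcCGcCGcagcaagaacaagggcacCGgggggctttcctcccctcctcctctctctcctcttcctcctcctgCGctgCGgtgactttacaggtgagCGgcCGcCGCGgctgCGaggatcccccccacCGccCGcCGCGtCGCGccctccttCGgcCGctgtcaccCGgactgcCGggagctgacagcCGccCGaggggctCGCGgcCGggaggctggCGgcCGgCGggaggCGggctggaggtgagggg
It holds 29 CG pairs. Promoter windows were otherwise scarce in the regions. Some small non-coding genes, tRNA genes among them, lay whole in other regions and are not counted here. A whole 300-base promoter window lay in 6 of 300 regions (2.00%, 95% Wilson interval 0.92 to 4.29), in 4.57% of all distal f/f peaks and in 9.26% of the 3390 distal f/f peaks that were as wide as the regions and had a KO peak within 1000 bp. Intervals here and below cover counting error only.

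Most of the regions were wide but weak. Widths ran from 1796 to 5813 bp with a median of 2152.5 bp, against 1108 bp over all distal f/f peaks. The -log10 p ran from 3.0 to 35.5 with a median of 5.15, against 8.46 over all distal f/f peaks and 13.6 over the equally wide peaks with a KO counterpart. Of the 300 regions, 25 (8.33%, interval 5.71 to 12) reached the median of the f/f list, against 55.4% of those equally wide peaks. The fold ran from 1.47 to 4.72 with a median of 2.69. A -log10 q of at least 5 was reached by 85 of the 300.

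**Figure D1:**
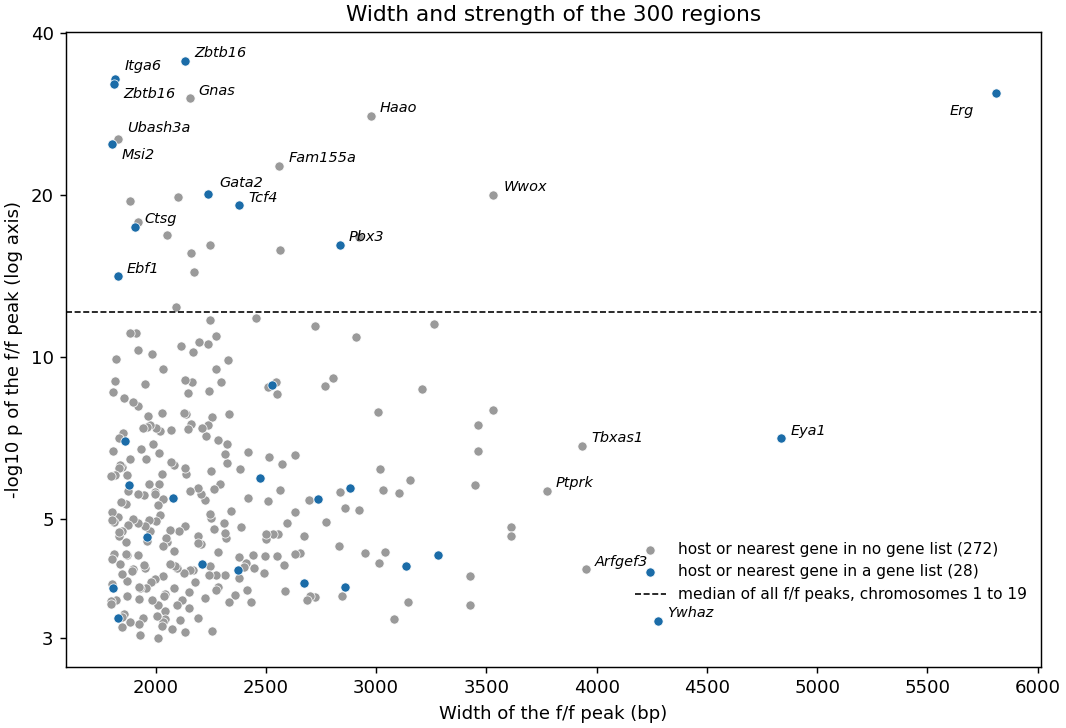
Each point is 1 of the 300 regions, by the width of its f/f peak in bp and the -log10 p of that peak on a log axis. Blue points have a host or nearest gene in a gene list, and the dashed line is the f/f median of 12.1, above which 25 regions lie.

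Distal f/f peaks went without a KO counterpart less often the wider they were. Of peaks under 500 bp, 49.3% (46.6 to 52.0) had no KO peak within 1000 bp, and of peaks of 3000 bp and over 3.84% (2.67 to 5.50). Of all distal KO peaks 28.1% had no f/f counterpart, from 63.6% to 4.02% over the same classes. Among the 3690 distal f/f peaks as wide as the regions, the 300 regions are 8.13%. Strength separated these further, because 275 of 1787 below the f/f median -log10 p (15.4%) had no KO counterpart, and 25 of 1903 at or above it (1.31%). Over distal f/f peaks of any width at or above that median the share was 3.25%. A wide, strong f/f peak without a KO peak was thus uncommon, and the 25 are described below.

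**Figure D2:**
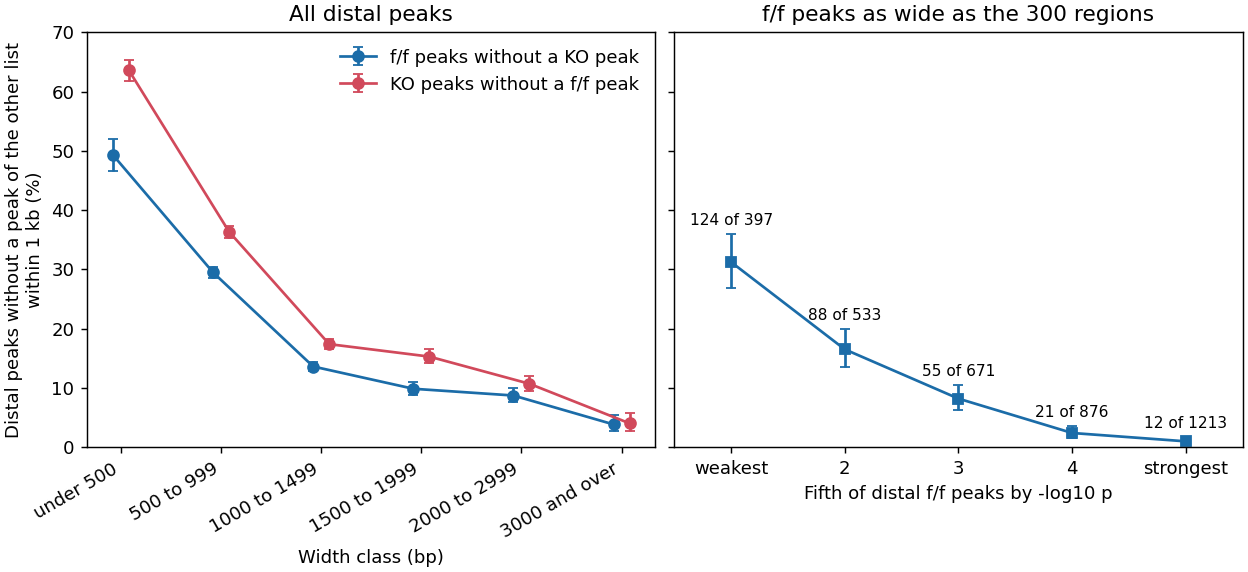
Left, the percent of distal peaks of each list without a peak of the other list within 1 kb, by width class in bp; right, the same for f/f peaks as wide as the regions, in 5 classes of -log10 p. Bars are 95% Wilson intervals, and the share falls from 31.2% in the weakest class to 0.99% in the strongest.

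At the width threshold the values ran on without a step. The last regions inside it lay in Gng12 (1797 bp, -log10 p 3.51), 58.1 kb from Zfp236 (1797 bp, 6.0) and 23.9 kb from Kif13b (1796 bp, 3.47). The next peaks outside it lay in Memo1 (1795 bp, -log10 p 3.96), 14.9 kb from Padi1 (1790 bp, 3.08) and in Rev3l (1790 bp, 3.67).

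The regions lay inside genes about as often as other distal peaks, and their median distance from gene ends was larger, though not with every setting. Of the 300, 179 (59.7%, interval 54.0 to 65.1) lay in a protein-coding gene, against 58.2% of all distal f/f peaks. The 300 KO regions chosen by the mirrored rule also had 179 inside a gene. The median distance to the nearest gene end was 35.6 kb (95% order-statistic interval 28.4 to 43.7), against 20.8 kb over all distal f/f peaks and 23.2 kb (18.4 to 27.1) over the KO regions. With a -log10 q of at least 5 asked of KO peaks alone, the regions' median was 20.9 kb, beside the same 20.8 kb over all distal f/f peaks. With all gene ends of the table counted, non-coding genes included, it was 16.9 kb against 12 kb. Over 100 kb from any gene end lay 61 regions (20.3%, 16.2 to 25.2), against 11.7% of all distal f/f peaks. All 19 chromosomes held regions, from 0.83% of the distal f/f peaks of chromosome 11 to 1.99% of those of chromosome 14. The regions were scattered, at 290 loci when regions within 50 kb were joined, and 18 (6.0%) had another region within 50 kb. A KO peak lay within 10 kb of 128 regions (42.7%), and 54 (18%, 14.1 to 22.7) had none within 100 kb. Of the other 4243 distal f/f peaks without a KO peak within 1000 bp, 43.2% had one within 10 kb and 10.8% had none within 100 kb. All distal f/f peaks, most of which have a KO peak within 1000 bp, had 88.6% and 2.27%. For the KO regions, 11.3% had no f/f peak within 100 kb. The gene holding or nearest to the region had an f/f peak within 1 kb of a gene end for 191 regions (63.7%) and a KO peak there for 168 (56.0%). Over all distal f/f peaks these shares were 71.6% and 69.8%.

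Coverage around the regions was lower in KO more often where the region was strong, and the same held in the other direction around KO regions. Bases under peaks, other regions included, were counted within 50 kb of each region, leaving out the region and 1 kb on both sides. KO covered fewer of these bases than f/f at 153 of the 300 regions (51.0%), more at 101, and neither list had a peak there at 46. Over all distal f/f peaks KO covered fewer at 41.4% and more at 52.9%. Around the mirrored KO regions it was f/f that covered fewer bases, at 195 of 300 (65%), against 56.6% of all distal KO peaks. At the 25 regions at or above the f/f median -log10 p, KO covered fewer bases at 19 (76.0%, 56.6 to 88.5), with a median of 5.61 kb in f/f and 1.87 kb in KO. Around 1878 f/f peaks as wide and at or above the same median, but with a KO counterpart, KO covered fewer at 41.0% (38.8 to 43.2). Around the 28 KO regions at or above the KO median, f/f covered fewer at 21 (75%, 56.6 to 87.3), against 58.3% of all distal KO peaks of that strength. These comparators were added after seeing the data. At the 275 weaker regions KO covered fewer at 134 (48.7%), with medians of 3.26 and 2.75 kb. Sites that both lists marked within 50 kb of a strong region were narrower in KO at 45 of 56, against 52.3% of all 28055 shared sites, with a median log2 width ratio of -0.26 against -0.01. Within 50 kb of the 1878 strong peaks with a KO counterpart, those peaks' own sites left out, it was 49.1% of 5537. Near the 28 strong KO regions, 29 of 55 shared sites (52.7%, interval 39.8 to 65.3) were wider in KO, against 47.4% of all shared sites. Sites near a region can share its domain, so they are not independent of the rule. Several of the 56 sites lay near the same region, as at Erg and Itga6, so they are not 56 independent cases. No count per region was made.

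**Figure D3:**
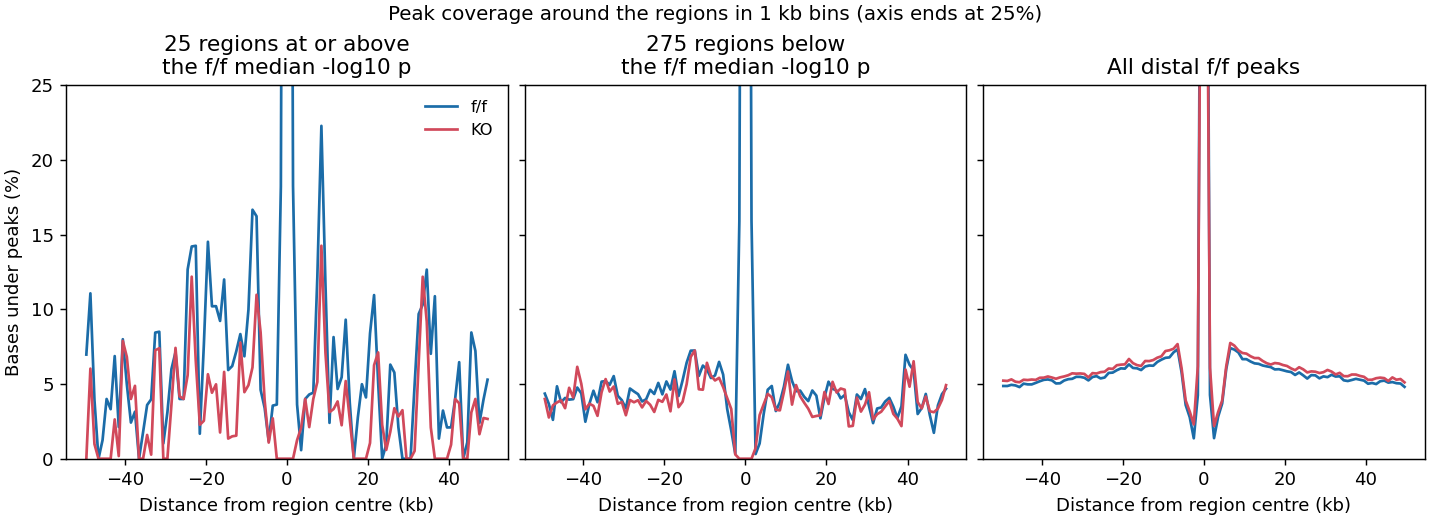
Percent of bases under f/f (blue) and KO (red) peaks in 1 kb bins by distance from the region's centre in kb, for the 25 stronger regions, the 275 weaker regions and all distal f/f peaks. The axis ends at 25%; the f/f peak at the centre of the regions and the missing KO peak there are set by the rule.

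The region with the highest -log10 p lay in Zbtb16, which encodes PLZF, a zinc finger repressor of blood stem and progenitor cells and a fusion partner in a form of leukaemia. Zbtb16 spans chr9:48651797-48836225. A region of 2133 bp inside it (chr9:48710233-48712365) had a -log10 p of 35.5, the highest of the 300, and one of 1813 bp (chr9:48813860-48815672) had 32.2, next after a region near Itga6. A further region of 2857 bp (chr9:48646494-48649350), 2.45 kb outside the gene, was weak at 3.73. Within the gene f/f had 10 peaks covering 14.1 kb and KO had 1 covering 1.29 kb, and 9 of the f/f peaks overlapped no KO peak. With the regions left out, f/f still covered 10.1 kb.

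Among 349 protein-coding genes with at least 10 kb under f/f peaks, the KO to f/f ratio of covered bases had a median of 0.99, with 0.55 at percentile 5. Choosing genes by f/f bases favours low ratios. Zbtb16 had the lowest ratio, 0.091, and also with the bases of the regions left out of f/f, 0.13. The next 4 were also genes of regions: Fam155a (0.21), Pbx3 (0.23), Tcf4 (0.26) and Msi2 (0.30), and the regions enter these ratios. With their bases left out, the ratios were 0.25 for Fam155a, 0.48 for Pbx3, 0.31 for Tcf4 and 0.36 for Msi2. Of the 51 genes of regions in this set, 39 (76.5%) had a ratio under 1, but without the bases of the regions 27 (52.9%) did, against 52.1% of all 349. Leaving out f/f bases chosen for lacking a KO peak raises these ratios by construction. The median was then 0.95 for the genes of regions.

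Pbx3, a TALE homeobox gene whose product binds DNA with HOXA9 and MEIS1, held 3 regions within 55.7 kb. The strongest (chr2:34249410-34252244) was 2835 bp wide with a -log10 p of 16.2. The other two were 2376 bp (4.01) and 1881 bp (5.77) wide. Over the gene f/f had 9 peaks covering 13.7 kb and KO 3 covering 3.18 kb. No KO peak of this gene lacked an f/f partner, while 6 f/f peaks lacked a KO partner. Rnf217, a ubiquitin ligase gene, also held 3 regions within 55.8 kb, but these were weak, with a -log10 p of 3.07 to 6.03, and KO had 6 peaks in the gene to 10 in f/f.

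Erg, an ETS factor gene of stem cells and a partner of GATA2, held the widest region of all (chr16:95453319-95459131), 5813 bp with a -log10 p of 31.0 and a fold of 1.94. It belonged to a run of wide f/f peaks. The next ones on its lower side were 5839 and 4923 bp wide (-log10 p 16.1 and 29.5), and the KO peaks overlapping them were 750 and 1830 bp and 604 bp wide. The nearest KO peak lay 2.12 kb from the region. Erg differs in this from Zbtb16, since both lists had 12 peaks in the gene, which covered 13.6 kb in KO to 29.5 kb in f/f. Without the 2 regions in Erg, f/f covered 20.9 kb. At some sites the KO peak was the wider, as 7.7 kb above the region's centre (1867 to 1669 bp). A weaker region lay 12.8 kb from the gene's upper coordinate (2735 bp, 5.43).

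Msi2, which encodes an RNA-binding protein of stem cells and leukaemia, had a region of 1804 bp (chr11:88598343-88600146) with a -log10 p of 24.9. The gene had 8 f/f peaks covering 11 kb and 4 KO peaks covering 3.34 kb. Tcf4, an E protein gene of the dendritic and lymphoid lineages, had one of 2380 bp (19.1) on chromosome 18, with 10 f/f peaks (13.9 kb) and 4 KO peaks (3.61 kb) in the gene. Fam155a, a subunit gene of a sodium leak channel named after its values were seen, had one of 2562 bp (22.7), with 14 f/f peaks (17.5 kb) and 3 KO peaks (3.75 kb). In these 3 genes no KO peak lacked an f/f partner.

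**Figure D4:**
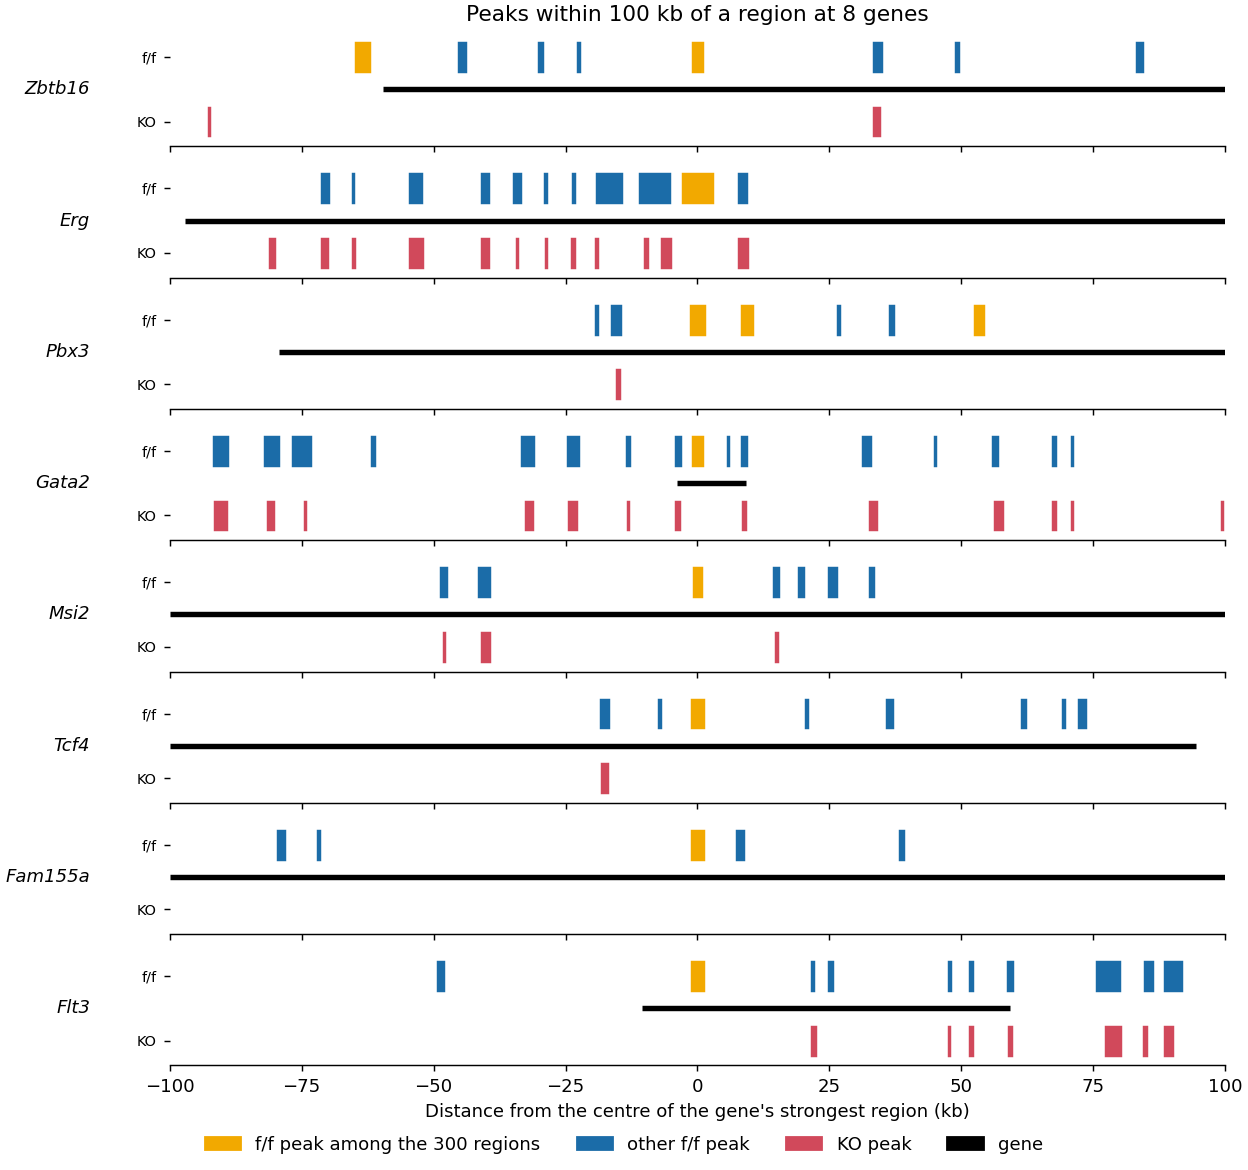
Peaks of f/f (upper row) and KO (lower row) within 100 kb of the strongest region at 8 genes, by distance from the region's centre in kb, with the gene as a black bar and the regions in yellow. Erg has KO peaks beside most f/f peaks, while Zbtb16, Pbx3, Tcf4 and Fam155a have 2, 1, 1 and 0 KO peaks in the window.

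The KO coverage around the other regions of high -log10 p varied. Itga6 encodes a laminin-binding integrin chain of stem and progenitor cells, and a region 55.2 kb from it (1817 bp, -log10 p 32.9) was surrounded by 8.14 kb of f/f and 8.16 kb of KO peaks. In Gnas, an imprinted gene for a G protein subunit, the region (2155 bp, 30.3) had 5.47 and 5.0 kb around it. The region in Ubash3a, a gene of T cell receptor signalling (1831 bp, 25.4), had 9.13 and 9.99 kb. A region 135.7 kb from Haao (2975 bp, 28.1) had 7.56 kb of f/f peaks, another region of 2265 bp among them, and 2.90 kb of KO peaks. At Wwox, a long gene at a fragile site, the region (3530 bp, 20.0) had 5.88 and 5.25 kb.

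The remaining strong regions were not covered by the rule for naming and were chosen after their values were seen. At 3 of them neither list had a peak within the 50 kb on either side: 131.6 kb from Zfp64 (2924 bp, -log10 p 16.7), 355.2 kb from Efna5, an ephrin gene (1882 bp, 19.5), and at chr4:71351874-71354436 (2563 bp, 15.8). Crtc3, a coactivator gene of CREB, held one (2051 bp, 16.9) amid 15.8 kb of f/f peaks, another region among them, and 10.6 kb of KO peaks. Psat1, a serine synthesis gene, had one 66.4 kb away (1921 bp, 17.8) with 6.27 and 1.97 kb around it. In Klhl14 (2101 bp, 19.8) f/f had 1.53 kb around it and KO none, and the nearest KO peak lay 565.5 kb away. A region 27.9 kb from Hs2st1, a heparan sulfate enzyme gene (2247 bp, 16.2), had 2.64 and 1.34 kb around it. The region in Col19a1, a collagen gene (2161 bp, 15.6), had 3.98 and 1.87 kb. A region 13.2 kb from Cyp8b1, a bile acid synthesis gene (2176 bp, 14.4), had more KO than f/f bases nearby, 5.09 to 4.11 kb. So did the regions of Itga6 and Ubash3a. The weakest of the 25 (2095 bp, 12.4) lay 193.2 kb from Fbxw7, a ubiquitin ligase gene, with 1.41 and 0.81 kb around it.

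Among the 20 widest regions, only Erg and Wwox reached the f/f median -log10 p. Eya1, a phosphatase and coactivator gene among the MLL-AF9 targets, held the next widest (chr1:14300089-14304925), 4837 bp with a fold of 1.47, the lowest of the 300, and a -log10 p of 7.05. Both lists had a gene-end peak at Eya1, and 7 f/f peaks against 5 KO peaks lay in the gene. A second, weak region assigned to Eya1, not among the 20 widest, lay 219.2 kb outside it (chr1:13947569-13949780, 2212 bp, -log10 p 4.11). Others among the 20 lay 63.1 kb from Ywhaz (4278 bp, -log10 p 3.22), in Arfgef3 (3951 bp, 4.02), Tbxas1, the thromboxane synthase gene (3935 bp, 6.83), Ptprk (3775 bp, 5.64) and Trim71 (3614 bp, 4.82). Kank1 (3530 bp, 7.96), Sncaip (3464 bp, 6.68) and Cd36, a scavenger receptor gene (3461 bp, 7.48), followed. The last of the 20 lay near Nup160, in C2cd6, Pibf1 and Ets1, near Tmem26, in Hivep2, near She and in Cfap45, from 3450 to 3146 bp wide. In Arfgef3, Kank1, Cd36, C2cd6 and Cfap45 the KO list had no peak anywhere in the gene. The f/f list had few there: 2 peaks each in Arfgef3, Kank1 and Cd36, the region included, and only the region in C2cd6 and Cfap45. Within 50 kb of the Cfap45 region KO covered more bases than f/f, 9.39 to 8.15 kb. Near those of Kank1 and Cd36 only f/f had peaks, and near those of Arfgef3 and C2cd6 neither list had any.

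The genes of the regions were then set against 18 gene lists. Host gene means the protein-coding gene that holds a region, and otherwise the gene with the nearest end was taken, giving 281 genes. These are 1.38% of 20397 protein-coding genes and 3.47% of the 8087 genes assigned any distal f/f peak in the same way. The KO regions gave 284 genes, 1.39% of the protein-coding genes, out of 8505 genes assigned any distal KO peak. Of the 8087 genes with a distal f/f peak they held 224 (2.77%). That set holds all 281 genes of the f/f regions by construction, so 3.47% and 2.77% are not a like comparison. The 281 genes were long, with a median of 97.1 kb against 17.7 kb over all protein-coding genes, and long genes can hold more distal peaks. The lists were chosen with earlier results for several of these genes known, so that their counts are no independent evidence.

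MLL-AF9 target genes had the highest share, with 7 of 27 (25.9%) at a region: Eya1, Flt3, Jmjd1c, Mef2c, Meis1, Pbx3 and Tcf4. The mirrored KO regions had 2 genes of this list. Meis1, the homeobox gene that works with HOXA9, held a region of 3138 bp and low strength (-log10 p 4.07), with 11 f/f peaks (21.0 kb) and 9 KO peaks (16.9 kb) in the gene. In Flt3, a receptor kinase gene of progenitors, the region was 2526 bp wide (8.86), with 6 f/f peaks (5.99 kb) and 4 KO peaks (2.37 kb). The MADS factor gene Mef2c (2077 bp, 5.46) and the demethylase-family gene Jmjd1c (1830 bp, 3.26) had similar covered bases in both lists, 19 and 17.9 kb and 17.0 and 17.5 kb. The f/f values of these genes include the regions. Without the regions f/f covered 17.9 kb in Meis1, 3.46 kb in Flt3, 16.9 kb in Mef2c and 15.2 kb in Jmjd1c.

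GATA2 and its partner factors had 4 of 20 (20.0%): Erg, Ets1, Gata2 and Meis1, against 2 for the KO regions, Ets1 and Runx1. In Ets1 the region was 3280 bp wide and weak (4.28), and KO peaks covered 13.3 kb of the gene to 14.2 kb in f/f. Without the region f/f covered 10.9 kb. Ets1 thus had a region in both directions. Of the repressor list, 2 of 21 genes had regions, against 1 for the KO regions, Foxp1. The 2 were Zbtb16 and again Foxp1, a forkhead gene with 32 f/f and 38 KO peaks, whose 2 f/f regions were weak (4.63 and 3.71).

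The other lists had 0 to 2 genes each. Msi2 was 1 of 24 stem cell genes and Itga6 1 of 19 adhesion genes, a list with 3 genes at KO regions, Cd47, Itgb1 and Ptprc. Il6st, the shared chain of IL-6 family receptors, had a region 34.1 kb away (2472 bp, 5.94) and joined Flt3 as 2 of 25 cytokine genes. Irf8, a factor of monocyte and dendritic cell development, had a region 9.79 kb away (2672 bp, 3.80), and f/f covered 19.5 kb of the gene and its 50 kb flanks to 11.3 kb in KO. The region is among these f/f bases. Ctsg, the cathepsin G gene of azurophil granules, had one 5.29 kb away (1907 bp, 17.5), with 6.53 kb of f/f and 6.22 kb of KO peaks around it. Ebf1, a B lineage factor gene, had one (1828 bp, 14.1) in a gene with 2 f/f peaks and no KO peak. Satb1, a chromatin organiser (2883 bp, 5.69), and Arhgap15, a Rac inhibitor gene (1861 bp, 6.97), had weak ones. No region was assigned to a gene of the mast cell and basophil (20 genes), erythroid and megakaryocyte (22), stromal and endothelial (18), apoptosis and p53 (19), drug uptake, efflux and metabolism (22) or cell cycle (19) lists. The ubiquitously expressed list, which stands for no lineage, had 1 of 18, Ywhaz.

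Over all lists 21 of 351 genes (5.98%) had a region, and 9 of these had one at or above the f/f median -log10 p. Of the 25 strong regions 10 (40%, interval 23.4 to 59.3) had a listed gene, against 18 of the 275 weaker ones (6.55%, 4.18 to 10.1). The share over all strong distal f/f peaks was not computed, so whether 40% is particular to these regions was not tested. Any distal f/f peak was assigned to 231 of the 351 listed genes, against 8086 of the 20397 protein-coding genes outside the left-out starts. The mirrored KO regions had 12 listed genes.

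**Figure D5:**
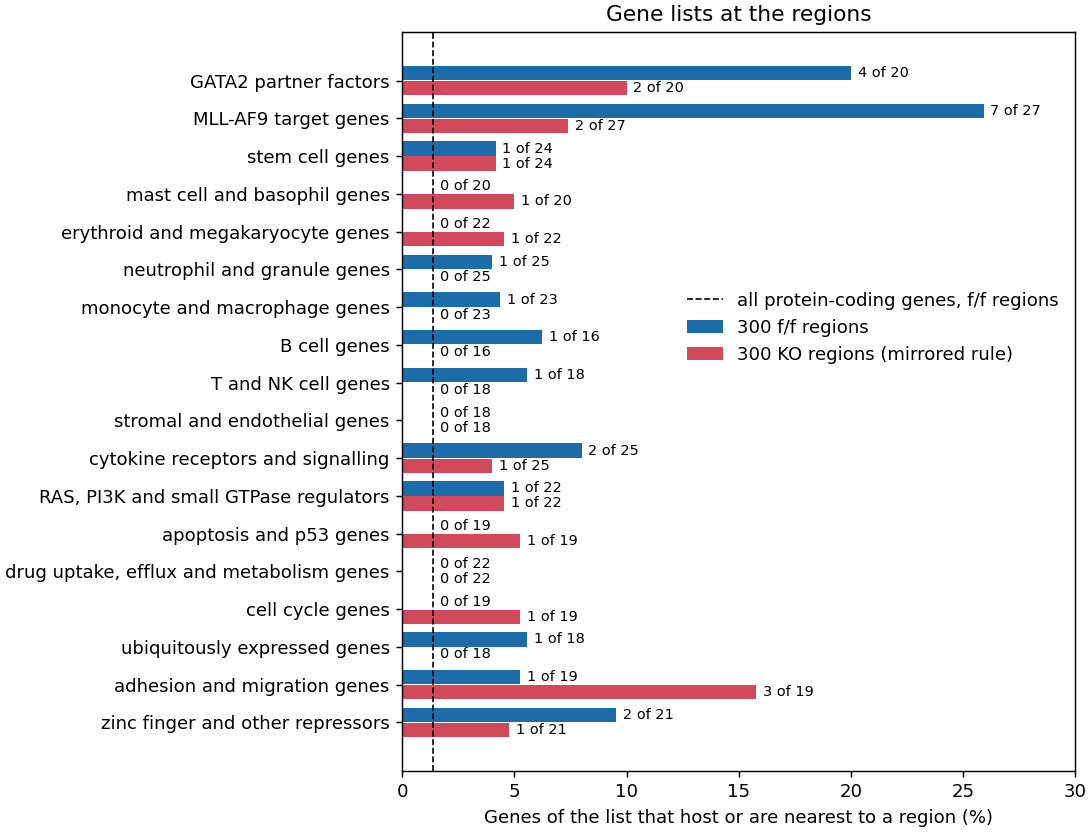
Percent of the genes of each of 18 lists that host or lie nearest to 1 of the 300 f/f regions (blue) or 1 of the 300 KO regions (red), with counts. The dashed line is the 1.38% of all protein-coding genes at an f/f region; the MLL-AF9 targets stand at 7 of 27.

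The promoters of the genes of regions, which the rule did not use unless they lay in a region, were under f/f peaks alone in more cases than other promoters. A 300-base promoter window was found for 214 of the 281 genes. In 120 of the 214 genes a window lay under a peak in both lists, in 24 (11.2%) in f/f alone, in 3 in KO alone and in 67 in neither. Over 16283 protein-coding genes f/f alone had 2.51% and KO alone 1.4%, and over genes with any distal f/f peak these were 3.86% and 1.57%. For the genes of the mirrored KO regions they were 2.33% and 2.79%. Leaving out Hivep2 and Klhl3, whose window lay in the region itself, 22 genes (10.3%) remained, 10 of them with a promoter peak at or above the f/f median -log10 p. Among genes of the 25 strong regions it was 1 of 17, so that these promoters belonged mostly to genes of weak regions. The comparison is between the same 2 libraries that chose the regions and is not independent of them.

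Of those 22, the promoter peaks at Meis1 (-log10 p 5.03) and Irf8 (7.55) were weak, and the nearest KO peaks lay 2.34 and 4.53 kb away. The others were picked after their values were seen. Zc3h12c, a gene of an RNA-degrading zinc finger protein, had a promoter peak of 1327 bp with a -log10 p of 168.5, and the nearest KO peak lay 108.0 kb away. Kcnq5, a potassium channel gene, had one of 1793 bp (157.0) with no KO peak within 742.5 kb. Plcb4, a phospholipase gene (63.8), Crim1 (46.1), Arfgef3 (35.9) and Col19a1 (32.7) followed. The region at Zc3h12c itself was weaker than its promoter peak (2314 bp, 6.60). At some genes the KO peak stopped short of the window, by 0.20 kb at Grm8, 0.25 kb at Mr1, 0.057 kb at Nrp1 and 0.005 kb at Plcl1.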

How the data were processed

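H3K27ac ChIP-seq peak lists of 1 Gata2 f/f and 1 Gata2 KO library were analysed. Reads were processed with BWA, SAMtools and MACS2 on build mm10, per the submitters' processing notes, and the lists have the broad format; versions, options and any control library: not given in the sources used here. In the deposited lists the authors give each peak a fold, which is a ratio to background. The authors also give each peak's -log10 p-value, -log10 q-value and score. The authors' score entered no result. Each list comes from 1 library, not pooled.

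The 6 left-out starts are those of chromosomes 4, 6, 7, 13, 18 and 19, where 1 list had 1 to 2 peaks and the other 16 to 98. Genes and promoter windows came from RefSeq tables of GRCm38.p6, with 20661 protein-coding genes on chromosomes 1 to 19, of which 20397 lay outside the left-out starts. Distances are edge to edge. Named were the 20 widest regions, the 8 with the highest -log10 p, loci of 3 or more regions, regions at listed genes and 3 on either side of the threshold; other names are said to be chosen after their values were seen. A result at 1 of the 20 widest regions is not reported here. The regions and lists were chosen with earlier results of these data known. Python 3.11.15, pandas 2.3.3 and scipy 1.17.1 were used, functions were tested on simulated intervals, and bedtools 2.31.1 gave the same 22570 and 4543 peaks. The alternatives are in the closing section. The planned motif search in the regions was limited to promoter windows, since no genome sequence was used here.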

Additional observations from a re-analysis of the deposited data

How the results depend on the processing

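Under the alternatives, 59 of 84 recomputed values of 7 summaries stayed within their interval and 25 moved as follows, with no test. The share of distal f/f peaks without a KO peak (20.1%) was 26.9% with a -log10 q of at least 5 in both lists, 49.9% with that limit on KO alone, 23.7% with equal numbers of peaks, 15.8% with a 5000 bp window and 20.8% when all gene ends of the table counted. The share inside a gene (59.7%) was 48.0% for the 300 highest -log10 p. The median gene-end distance (35.6 kb) was 25.6, 20.9, 16.9 and 27.8 kb with the q limit on both lists, on KO alone, all gene ends and ranking by -log10 p, and 66.4 kb for the 25 strong regions. The share with another region within 50 kb (6.0%) was 2.00% for the 100 widest, 9.33% for the 600 widest, 2.67% within 20 kb and 0 for the strong regions. The share with a KO peak within 10 kb (42.7%) was 31.3%, 36.0%, 25% and 32.3% with the q limit on both lists, on KO alone, the 5000 bp window and ranking by -log10 p, and 36.0% for the strong regions. The share of genes with a KO gene-end peak (56.0%) was 49.0% for the 100 widest. The share with fewer KO bases nearby (51.0%) was 60.3%, 79.0% and 57.3% with the q limit on both lists, on KO alone and ranking by -log10 p, and 76.0% for the strong regions. The strong regions as an alternative were added after seeing the data. By construction, the share without a KO peak rises when KO peaks alone are limited and falls with the 5000 bp window. It also rises with equal numbers of peaks, since all 22570 distal f/f peaks stayed while KO peaks were dropped. For the same regions, the share with another region can only fall when 50 kb is replaced by 20 kb. The limit on KO alone also removes KO bases from the nearby counts, and the 5000 bp window bars KO peaks from part of the 10 kb searched. The causes of the other shifts were not tested. Only 29 of the 300 regions are among the 300 of highest -log10 p, and 55 among the 300 widest with the q limit on both lists. Merging f/f peaks within 1000 bp changed nothing, since none lay closer than 1697 bp. No paired analysis was possible because each genotype has 1 library.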

Other observations

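Several regions stood in long stretches without any KO peak. Outside the left-out starts, 6 stretches between neighbouring KO peaks held 8 or more f/f peaks, and 4 of these held a region, at Zc3h12c (11 f/f peaks in 227.3 kb), Fam155a (9 in 438.3 kb), Tcf4 (9 in 859.3 kb) and Klhl14 (8 in 1999.5 kb). In the other direction 10 stretches without an f/f peak held 8 or more KO peaks. Of 299 regions that lay between KO peaks of their chromosome, 162 had no other f/f peak in their KO-free stretch, 117 shared it with 1 to 3 others and 20 lay in a stretch of 5 or more f/f peaks. Lying between KO peaks without overlapping one follows from the rule. The same counts were not made for other f/f peaks without a KO peak, so whether they are particular to the regions was not tested.

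A pair of weak regions lay 24.3 kb from end to end between Dlk1 and Rtl1 on chromosome 12 (1984 bp, -log10 p 3.52, and 2050 bp, 4.52), with 2.69 and 2.62 kb of f/f peaks and no KO peak around them. Most of the f/f bases around each region are the other region of the pair, chosen for lacking a KO peak. Non-coding genes of the reference table overlapped 59 of 300 regions (19.7%, 95% Wilson interval 15.6 to 24.5), against 16.1% of all distal f/f peaks and 19.6% of the equally wide ones with a KO counterpart. The genes and regions named here were picked after their values were seen.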
